A study of Danio rerio with 6 samples.

Results

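The genes described here encode the Jak/Stat3 and Socs pathway, through which cells answer cytokines of the interleukin-6 family. They are the 10 rows of the count files, of 32520, that carry the names *stat3*, *socs3a*, *socs3b*, *jak1*, *jak2a*, *il6st*, *lifra*, *lepb*, *il11a* and *il6r*. All 10 were found. The names *socs3a* and *socs3b* were both given as SOCS3 in the table of Ensembl names. ENSDARG00000026611 is named *socs3b* in the supplementary tables of the study, and ENSDARG00000025428 was taken as *socs3a* by exclusion.

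Polyadenylated RNA was sequenced from 3 injured and 3 control hemispheres of the telencephalon, the anterior part of the brain, of adult zebrafish. Injury was a stab with a syringe needle into a single hemisphere, and RNA was taken at 5 dpl (days post lesion). The controls were the unlesioned contralateral hemispheres, labelled healthy and untreated, so that they stem from fish with a lesion on the other side. Neither strain, age in months nor sex of the fish is given in the sources used here, and each hemisphere was 1 library.

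Many cytokines of this family bind a receptor chain of their own, such as Il6r, and the shared chain Il6st (gp130). Jak kinases bound to the receptor chains then phosphorylate Stat3, which enters the nucleus and activates transcription. Among the genes that Stat3 activates is Socs3, which binds the receptor and the kinase and ends the signal. In the zebrafish retina, Stat3 is known as a factor that Müller glia switch on after damage. Phosphorylation of Stat3 is not visible in these data, which hold transcript levels alone.

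The depth of the libraries, as reads assigned to genes, ranged from 59675791 to 91663196. Levels are given as CPM, read counts per 1000000 after TMM normalization. This scales for library size and composition under the assumption that most genes do not change. The TMM factors were 0.978 to 0.985 in control and 1.01 to 1.02 in injured libraries. A count of 3, taken as the floor of detection, is 0.0320 to 0.0514 CPM. CPM are not corrected for gene length, so levels are compared between libraries and not between genes. Differences were tested in edgeR with the quasi-likelihood F-test, and adjp is the *p*-value after Benjamini-Hochberg adjustment over all 22558 genes tested. A gene was called at an adjp below 0.05. As a single hemisphere of a fish was lesioned and each hemisphere was processed on its own, the 3 injured hemispheres stem from separate fish.

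Across genes, a control library and the injured library of its replicate number deviated from the means of their conditions in the same direction (r = 0.55, 0.44 and 0.34), and libraries with different numbers did not (r between -0.39 and -0.12). As deviations were taken from the mean of each condition, positive values within numbers force the others negative on balance. Libraries of the same number were thus alike beyond condition. Whether a number marks a single fish or a shared preparation is not given by the labels and was not tested. A fit with replicate number as a block is given as counts for each list on which it changed calls, and for the genes described whose call it changed.

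Of the 10 members, 5 rose after injury and none was called lower. These were *stat3*, *jak1*, *il6st*, *il6r* and *socs3b*. Over all genes tested, 16.5% were called, 11.6% as higher and 4.82% as lower. DESeq2 called the same 5 members, against 21.8% of all genes, with 13.3% higher and 8.58% lower. In 5 members every injured library was above every control library and in 0 below, against 20.3% and 15.5% of all genes. All members passed the filter on low counts. Their median log2 fold change was 0.38, beside -0.0038 over all genes tested. With replicate number as a block, 7 members were called, with *socs3a* as a further gene that was higher and *jak2a* as the single gene that was lower. In that fit 36.1% of all genes were called, 19.9% as higher and 16.2% as lower.

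**Figure D1:**
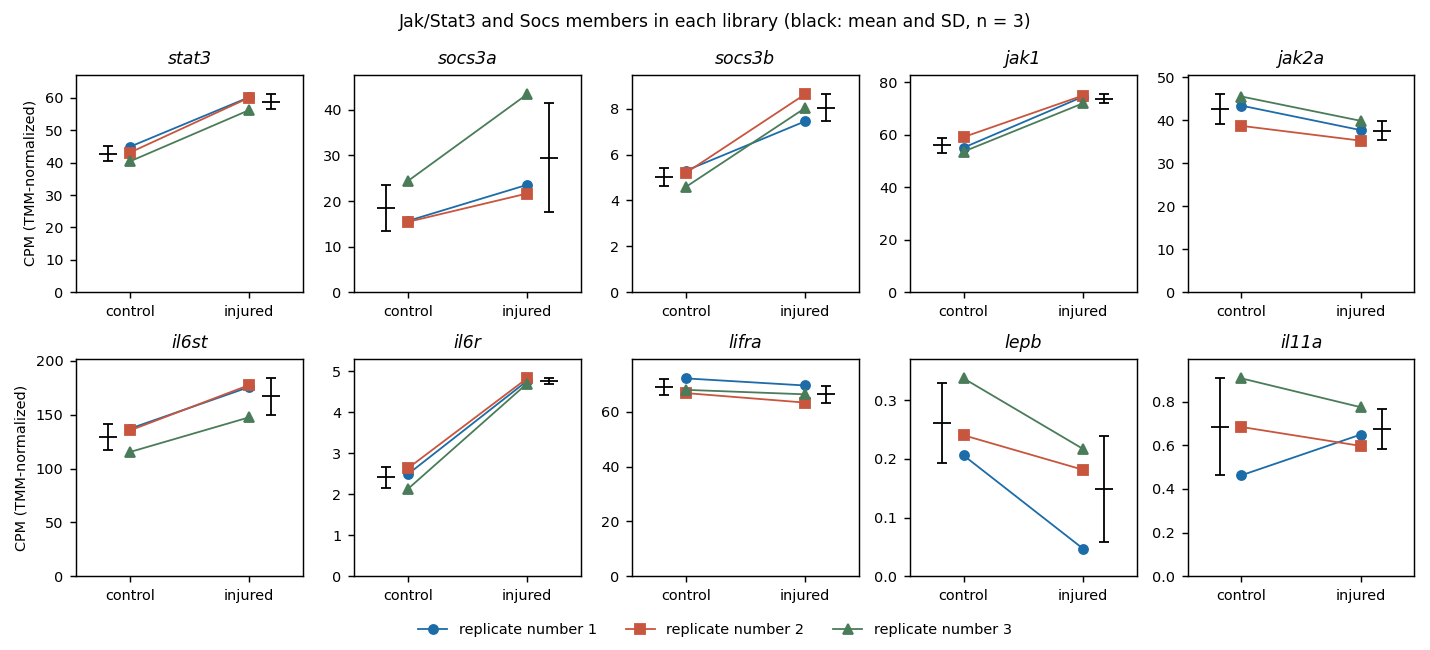
TMM-normalized CPM of the 10 members in each library, with lines joining hemispheres of the same replicate number and black bars for the mean and SD (n = 3). All injured libraries lie above all control libraries for *stat3*, *socs3b*, *jak1*, *il6st* and *il6r*, while *socs3a* is higher and *jak2a* lower at the injured end of each line, with *socs3a* highest in both hemispheres of replicate number 3.

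The transcription factor itself, *stat3* (ENSDARG00000022712), was at 44.9, 43.1 and 40.4 CPM in control replicates 1, 2 and 3. In the injured replicates it was at 60.2, 60.1 and 56.3 CPM. The conditions did not overlap, and the gap between the lowest injured and the highest control library was wider than the spread within either. The control mean was 42.8 ± 2.28 CPM and the injured mean 58.9 ± 2.26 CPM (SD, n = 3), and edgeR called the gene at 0.46 on the log2 scale (SE 0.056, adjp = 0.00323). Within the 3 replicate numbers, the log2 ratio of injured over control was 0.42, 0.48 and 0.48. It stayed called with each library left out, at an adjp of 0.00774 to 0.0159.

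Both *socs3* genes encode the inhibitor that closes the loop. Transcripts of *socs3b* were at 5.30, 5.20 and 4.59 CPM in control and at 7.45, 8.63 and 8.03 CPM in injured replicates 1, 2 and 3. All injured libraries were above all control libraries. This was a log2 fold change of 0.68 (SE 0.099, edgeR adjp = 0.00582), and adjp stayed at 0.0124 to 0.0261 when single libraries were dropped.

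Expression of *socs3a* was 15.6, 15.4 and 24.4 CPM in control replicates 1, 2 and 3, and 23.6, 21.7 and 43.4 CPM in the injured replicates. Both hemispheres of replicate number 3 were high, and control replicate 3 lay above injured replicates 1 and 2. The conditions therefore overlapped, although the injured hemisphere was higher than the control hemisphere within each of the 3 numbers, at log2 ratios of 0.59, 0.49 and 0.83. With condition alone, the log2 fold change of 0.67 (SE 0.30) was not called (edgeR adjp = 0.176). With replicate number as a block it was 0.64 (SE 0.068), and edgeR gave an adjusted *p*-value of 8.13e-04. The estimate without the block was 0.29 when injured replicate 3 was left out and 0.92 when control replicate 3 was left out.

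The ratio between the *socs3* genes was highest in both hemispheres of replicate number 3. As the log2 of *socs3a* over *socs3b* counts within a library it was 1.56, 1.57 and 2.41 in control and 1.66, 1.33 and 2.44 in injured replicates 1, 2 and 3. The mean changed by -0.039 (exact two-sided permutation test, p = 1 before and after adjustment over the 5 ratios tested, where 3 libraries against 3 cannot give less than 0.1). Its sign turned with single libraries left out, between -0.35 and 0.24.

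**Figure D2:**
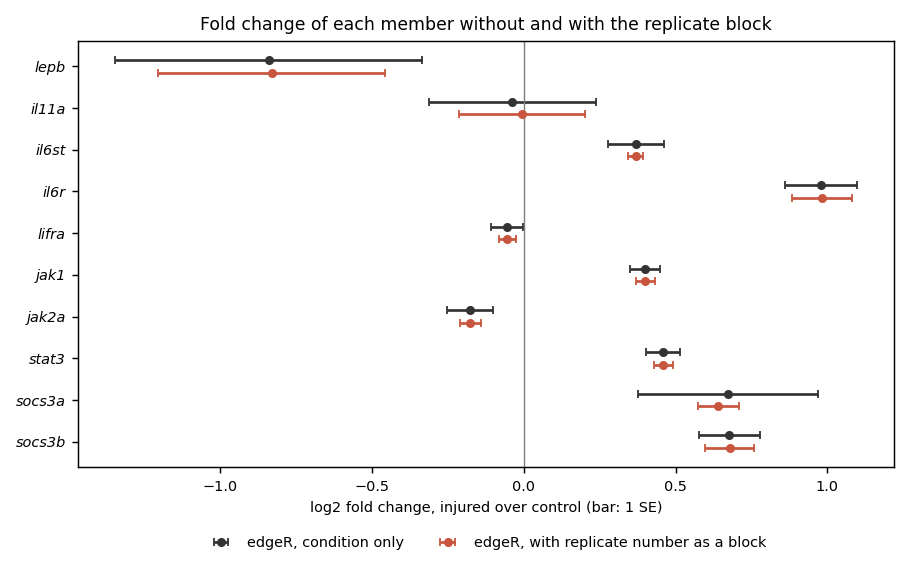
Log2 fold change of injured over control for each member with 1 SE, from edgeR with condition only (black) and with replicate number as a block (red). The estimates hardly move between the fits, while the SE of *socs3a* falls from 0.30 to 0.068 and that of *il6st* from 0.092 to 0.026.

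Of the receptor chains, *il6st* and *il6r* rose and *lifra* was not called. Il6st is a signal-transducing chain shared among cytokines of the interleukin-6 family. Its transcripts were at 137, 135 and 115 CPM in control and at 176, 178 and 148 CPM in injured replicates 1, 2 and 3. Replicate number 3 was lowest in both conditions, and the lowest injured library was only slightly above the highest control library. edgeR estimated 0.37 on the log2 scale for *il6st* (SE 0.092, adjp = 0.0353). The call was lost when any control replicate was dropped (adjp = 0.0695, 0.0668 and 0.0997 for replicates 1, 2 and 3 in edgeR). It was also lost for injured replicates 1 and 2 (0.0948 and 0.110), but not for injured replicate 3 (0.0211). Within replicate numbers the log2 ratios were 0.36, 0.39 and 0.36, and edgeR with the block gave 1.73e-04.

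The chain that binds interleukin-6, *il6r*, had the largest fold change of the members called. It was at 2.49, 2.63 and 2.12 CPM in control and at 4.76, 4.82 and 4.70 CPM in injured replicates. The injured libraries were close together, and all of them were well above the controls. Its log2 fold change was 0.98 (SE 0.12, edgeR adjp = 0.00323), and adjp was 0.0104 to 0.0159 with each library left out. The position of *il6r* overlaps that of an uncharacterized locus in the RefSeq annotation of GRCz12tu, as does that of *il11a*. Whether reads were counted by strand is not known from the sources used here, and counts of these genes are uncertain to that extent.

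For *lifra*, which encodes a receptor of leukemia inhibitory factor, CPM were 72.2, 66.8 and 68.0 in control hemispheres, and the injured hemispheres had 69.6, 63.4 and 66.4. The conditions overlapped, and the gene was not called, with a log2 fold change of -0.055 (SE 0.053, edgeR adjp = 0.555). Its paralog *lifrb* was at 2.25, 1.87 and 0.985 CPM in control and at 3.00, 4.94 and 3.64 CPM in injured replicates 1, 2 and 3, with no overlap. Its log2 fold change was 1.19 (SE 0.32, edgeR adjp = 0.0435). That call was lost with each library left out, at an adjp of 0.0503 to 0.123, and with the block the adjusted *p*-value in edgeR was 0.0106.

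The log2 ratio of *lifra* to *lifrb* counts was 5.01, 5.16 and 6.11 in control and 4.54, 3.68 and 4.19 in injured libraries. It was lower in every injured library, by -1.29 on average. The exact two-sided permutation test gave p = 0.1, the smallest value it can give, and 0.5 after Benjamini-Hochberg adjustment over the 5 ratios tested. The unequal response of these paralogs is thus a description.

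Jak1 and Jak2 are among the kinases that associate with gp130. The level of *jak1* was 55.1, 59.2 and 53.6 CPM in control and 74.6, 75.0 and 72.0 CPM in injured replicates. No control library reached the level of an injured library. Injury raised *jak1* by 0.40 on the log2 scale (SE 0.050, edgeR adjp = 0.00344), close to the 0.46 of *stat3*, and it stayed called with each library left out, at 0.00767 to 0.0191. The ratio of *stat3* to *jak1* counts changed by 0.059 on the log2 scale (exact two-sided permutation test, p = 0.4, and 0.67 after adjustment).

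Transcripts of *jak2a* had 43.4, 38.7 and 45.5 CPM in control replicates 1, 2 and 3, and 37.7, 35.3 and 39.9 CPM in the injured replicates. The injured hemisphere was lower within each replicate number, while injured replicate 3 lay above control replicate 2. The log2 fold change of -0.18 (SE 0.076) was not called (edgeR adjp = 0.162). With replicate number as a block, the same log2 fold change of -0.18 (SE 0.035) was called lower, with an adjusted *p*-value of 0.00865 in edgeR. Its paralog *jak2b*, named by exclusion, had a log2 fold change of -0.064 (SE 0.083, edgeR adjp = 0.674). The ratio between both paralogs changed by -0.11 on the log2 scale (exact two-sided permutation test, p = 0.4, and 0.67 after adjustment).

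The ligands among the members were scarce at 5 dpl. Of *lepb*, a leptin gene that is induced in regenerating zebrafish tissues such as fin and heart, 12, 20 and 26 reads were counted in control and 4, 17 and 14 in injured replicates 1, 2 and 3. These are 0.206, 0.240 and 0.337 CPM and 0.0472, 0.181 and 0.217 CPM. The injured hemisphere had the lower value within each number, and the conditions overlapped. edgeR did not call it, at -0.84 on the log2 scale (SE 0.51, adjp = 0.317).

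For *il11a*, an interleukin-11 gene with a role in fin and heart regeneration of zebrafish, 27, 57 and 70 reads were counted in control and 55, 56 and 50 in injured libraries. It was at 0.463, 0.684 and 0.907 CPM and at 0.649, 0.597 and 0.775 CPM, with overlap and no common direction within the replicate numbers. Its log2 fold change was -0.038 (SE 0.28, edgeR adjp = 0.950). At such counts only large differences of the ligands would have been detectable.

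Further genes of the pathway were taken from lists by role. Of 145 genes matched, 125 passed the filter, of which 34 were called higher and 2 lower, and 89 were not called. Their median log2 fold change was 0.17. With replicate as a block, 44 were called higher and 9 lower. Over all genes tested, 11.6% were called higher and 4.82% lower with condition alone, and 19.9% and 16.2% with the block. Each list below is to be read against these shares. Of the 36 called, 20 stayed called with each single library left out. The genes matched, tested and called higher include *il34*, which stands outside the Jak pathway proper, as described below.

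Among the other kinases, *jak3* rose and *tyk2* and *jak2b* were not called. Jak3 serves the common gamma chain receptors of leukocytes. Its transcripts were at 2.88, 3.22 and 2.67 CPM in control and at 6.83, 6.55 and 6.83 CPM in injured replicates. The conditions were far apart, with a log2 fold change of 1.20 (SE 0.11, edgeR adjp = 0.00121). For *tyk2*, a kinase used by interferon and interleukin-12 receptors among others, the log2 fold change was -0.0039 (SE 0.037, edgeR adjp = 0.961).

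Of 5 other Stat genes, *stat2*, *stat4* and *stat6* rose and none was called lower, with a median log2 fold change of 0.79. Shares over all genes tested were 11.6% higher and 4.82% lower. Stat2 transmits interferon signals, Stat4 those of interleukin-12 and Stat6 those of interleukin-4 and interleukin-13.

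Transcripts of *stat2* were at 48.3, 31.7 and 24.7 CPM in control and at 88.7, 63.0 and 54.9 CPM in injured replicates. Replicate number 1 was highest in both conditions, and every injured library lay above every control. *stat2* was called at a log2 fold change of 0.98 (SE 0.26, edgeR adjp = 0.0449). Dropping single libraries ended the call for control replicates 2 and 3 (edgeR adjp = 0.123 and 0.120) and for injured replicates 1, 2 and 3 (0.109, 0.0849 and 0.0547). With the block, edgeR gave 7.73e-05.

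The rise of *stat4* was from 3.62, 3.29 and 3.52 CPM to 9.31, 8.34 and 8.91 CPM, a log2 fold change of 1.35 (SE 0.090, edgeR adjp = 7.05e-04). Levels of *stat6* went from 7.08, 6.78 and 5.55 CPM to 11.3, 11.7 and 10.5 CPM. Its log2 fold change was 0.79 (SE 0.11, edgeR adjp = 0.00466). Both stayed called with each library left out. The log2 fold changes of *stat5a* and *stat5b*, which serve receptors of growth hormone and prolactin, were 0.048 (edgeR adjp = 0.778) and 0.040 (edgeR adjp = 0.787).

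**Figure D3:**
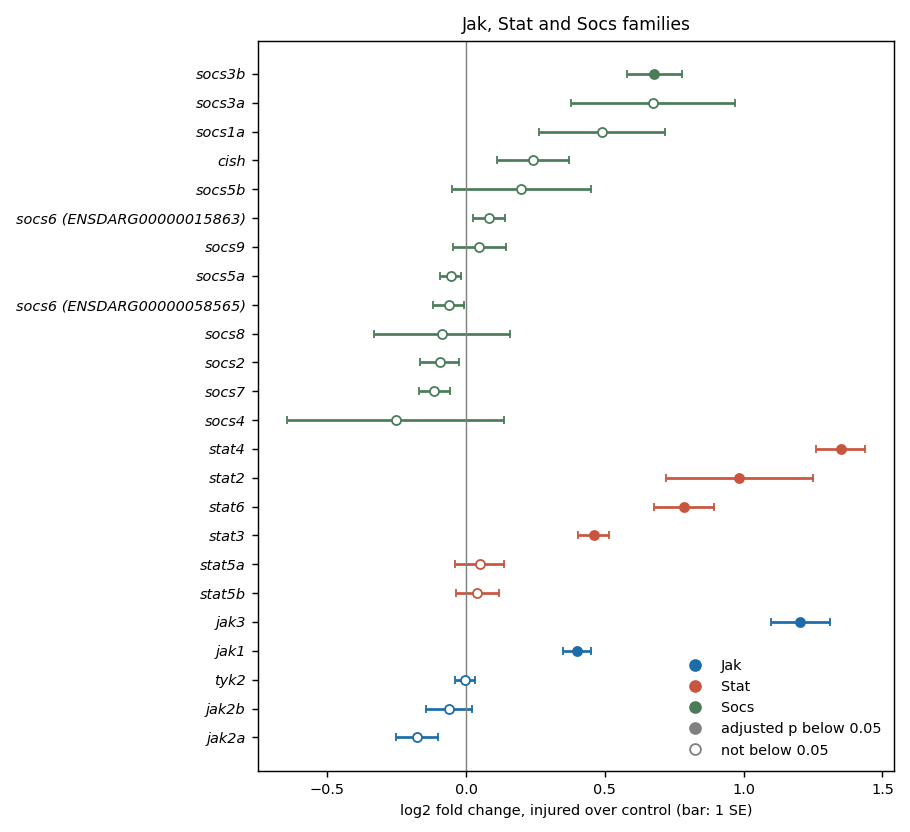
Log2 fold change of injured over control with 1 SE for the Jak (blue), Stat (red) and Socs (green) genes tested, members included, with filled points for an adjp below 0.05. Filled are *jak1* and *jak3*, *stat2*, *stat3*, *stat4* and *stat6*, and *socs3b* as the single Socs gene.

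None of the 11 other Socs genes tested was called by edgeR in either direction, against 16.5% of all genes tested. The number with an unadjusted *p*-value below 0.05 was 0, and DESeq2 called 0 of the 10 for which it gave an adjusted *p*-value. With the block, 1 of these Socs genes was called higher, against 19.9% of all genes. This was *socs1a*, an inhibitor induced by interferon, at 2.81, 3.63 and 2.25 CPM in control and at 3.08, 4.79 and 4.34 CPM in injured replicates. Its log2 fold change was 0.49 (SE 0.23, edgeR adjp = 0.194), and the adjusted *p*-value with the block was 0.0471. The difference in response between *socs3b* and the other Socs genes was not tested.

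**Figure D4:**
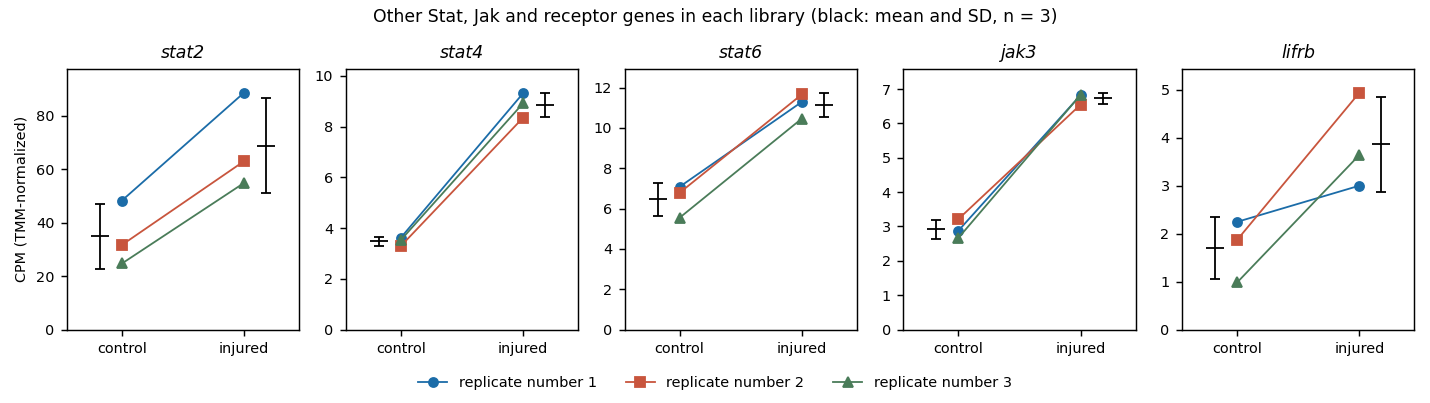
TMM-normalized CPM of 5 genes of the pathway outside the members in each library, with lines joining hemispheres of the same replicate number and black bars for the mean and SD (n = 3). Injured libraries lie above control libraries in every panel, with a wider spread for *stat2* and *lifrb* than for *stat4*, *stat6* and *jak3*.

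Of the 36 other receptor genes tested, 14 rose and 0 were called lower with condition alone, and the median log2 fold change was 0.33. Over all genes tested, 11.6% were called higher and 4.82% lower, and 19.9% and 16.2% with the block. With the block 19 of these receptor genes were called higher and 1 lower, the prolactin receptor gene *prlra*, at a log2 fold change of -0.14 (edgeR adjusted *p*-value 0.0135 with the block and 0.272 without). With the smallest adjp of the list came *csf3r*, the receptor of the granulocyte factor G-CSF. It was at 6.31, 6.31 and 5.77 CPM in control and at 16.6, 17.7 and 17.4 CPM in injured replicates, far apart. Its log2 fold change was 1.49 (SE 0.070, edgeR adjp = 2.45e-04). The next were *crfb4*, a receptor chain of the interferon and interleukin-10 class, with a log2 fold change of 1.08 (SE 0.12, edgeR adjp = 0.00246), and *il21r*, a receptor that pairs with the common gamma chain, with 1.16 (SE 0.16, edgeR adjp = 0.00451). All 3 genes stayed called with each library left out.

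Receptors of Il11, oncostatin M and leptin were not called with condition alone. For *il11ra*, the receptor of Il11, the log2 fold change of injured over control was 0.40 (SE 0.13, edgeR adjp = 0.0788), and with the block the adjusted *p*-value was 0.0156. For *osmr*, the receptor of oncostatin M, it was 0.78 (SE 0.37, edgeR adjp = 0.202), and 0.0115 with the block. The leptin receptor *lepr* had a log2 fold change of -0.099 (SE 0.11, edgeR adjp = 0.609).

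Of 35 other ligand genes, 22 had enough reads to be tested, and 2 were called higher and 0 lower with condition alone. With the block 2 were higher and 1 lower, *il15*, which encodes a cytokine of the common gamma chain receptors (log2 fold change -0.26, edgeR adjusted *p*-value 0.0167 with the block and 0.0544 without). The 1 ligand that DESeq2 called lower was again *il15* (DESeq2 adjusted *p*-value 0.0375). Shares over all genes tested were 11.6% higher and 4.82% lower, 19.9% and 16.2% with the block, and 13.3% and 8.58% in DESeq2. Transcripts of *crlf1a*, which encodes a secreted partner of cytokines that signal through gp130, were at 2.28, 2.34 and 1.90 CPM in control and 3.19, 3.56 and 3.58 CPM in injured replicates. With no overlap, its log2 fold change was 0.66 (SE 0.13, edgeR adjp = 0.0173). It was not called when control replicate 1 or 3 was dropped (edgeR adjp = 0.0502 and 0.0584), nor when injured replicate 2 or 3 was (0.0543 and 0.0536). The other called gene, *il34*, acts through Csf1r, a receptor tyrosine kinase, and so stands outside the Jak pathway proper (log2 fold change 0.32, edgeR adjp = 0.0477, and 0.0791 to 0.148 with each library left out). Of *il6* itself, 19 to 37 reads were found in each library, and its log2 fold change was 0.32 (SE 0.29, edgeR adjp = 0.531).

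A further list held Pias genes, phosphatases and Stam adaptors. Of its 14 genes, 3 were called higher and 2 lower, and 3 higher and 3 lower with the block. Shares over all genes tested were 11.6% higher and 4.82% lower, and 19.9% and 16.2% with the block. The counts with the block were near these shares. The leukocyte phosphatases *ptprc* (CD45) and *ptpn6* (SHP-1) rose, with log2 fold changes of 0.87 (SE 0.073, edgeR adjp = 0.00104) and 0.92 (SE 0.15, edgeR adjp = 0.00779). The phosphatase *ptpn11b* (SHP-2) fell, from 205, 192 and 194 CPM to 174, 161 and 163 CPM. At a log2 fold change of -0.25 (SE 0.046, edgeR adjp = 0.0134) it was called, but not when control replicate 1 (adjp = 0.0563) or injured replicate 2 or 3 (0.0514 and 0.0535) was dropped. Also called lower was the *pias1* gene ENSDARG00000036094, which encodes an inhibitor of Stat proteins, at a log2 fold change of -0.25 (SE 0.056, edgeR adjp = 0.0241). It kept this call only when injured replicate 1 was dropped. The gene that the block added was the other *pias1* gene, ENSDARG00000062445, at a log2 fold change of -0.20 (edgeR adjusted *p*-value 0.0168 with the block and 0.0866 without). The third gene called higher, *ptpn11a*, a second SHP-2 gene, had an edgeR adjp of 0.0269 and lost its call whichever library was left out.

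Genes known from mammals or fish as targets of Stat3 were also measured. Of 37 tested, 12 were called higher, 0 lower, and 25 not with condition alone, and the median log2 fold change was 0.29. With the block 17 were called higher and 4 lower, and DESeq2 called 13 higher and 2 lower. Over all genes tested, 11.6% were higher and 4.82% lower with condition alone, 19.9% and 16.2% with the block, and 13.3% and 8.58% in DESeq2. The targets lower with the block were *myca*, *pim1*, *junba* and *junbb*, at log2 fold changes of -0.13, -0.21, -0.19 and -0.27. These encode a Myc factor, a kinase and a pair of AP-1 factors. The receptor genes *il4r*, *osmr* and *lepr* stand on this list and on that of receptors. The smallest adjp were those of *cebpb*, *mmp9* and *gfap*. The transcription factor *cebpb* was at 1.78, 2.06 and 1.83 CPM in control and at 5.35, 5.34 and 5.47 CPM in injured libraries, which edgeR called at a log2 difference of 1.51 (SE 0.11, adjp = 8.96e-04). The matrix protease *mmp9* was at 7.25, 8.44 and 6.81 CPM in control and at 41.4, 43.4 and 27.4 CPM in injured replicates 1, 2 and 3. This was the largest log2 fold change of the list, 2.32 (SE 0.18, edgeR adjp = 9.73e-04). For *gfap*, the intermediate filament of astroglia, it was 1.17 (SE 0.11, edgeR adjp = 0.00128). Further genes called were *ascl1a* and *hbegfa*, both known from glia of the regenerating zebrafish retina, the survival genes *mcl1a*, *mcl1b* and *birc5a*, the cell cycle genes *mycb* and *ccnd1*, and *il4r* and *bcl6ab*. With single libraries left out, *birc5a* stayed called in 1 fit and *mcl1b* and *bcl6ab* in 2 each. The highest edgeR adjp of these fits was 0.0921 for *birc5a*, 0.0889 for *mcl1b* and 0.0750 for *bcl6ab*.

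The 5 named genes whose levels followed those of *stat3* most closely were *si:dkey-17m8.1*, *slc7a7*, *nampt2*, *gba* and *qki2*. Each had a Pearson correlation of 0.997 with *stat3* in log2 CPM over the 6 libraries, among 17226 genes with a mean of at least 1 CPM. All points share the same 2 conditions and 3 replicate numbers. The log2 fold changes ranged from 0.13 for *nampt2*, which was not called (edgeR adjp = 0.133), to 1.62 for *slc7a7* (edgeR adjp = 0.00331).

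Markers of several cell types differed between the conditions beside these genes. In whole hemispheres, more cells of a type and more RNA per cell cannot be told apart. Shares over all genes tested were 11.6% higher and 4.82% lower, 19.9% and 16.2% with the block, and 13.3% and 8.58% in DESeq2. All 13 markers of microglia and leukocytes rose, with a median log2 fold change of 1.06. Their summed level was 707 to 764 CPM in control and 2223 to 2664 CPM in injured libraries, and most of this difference was that of *apoeb*, with means of 259 and 1363 CPM. Radial glia markers were called higher for 4 of 6, and for 5 with the block, with sums of 1039 to 1108 CPM and 1364 to 1596 CPM. Of 3 neutrophil markers tested, *csf3r* and *cxcr1* rose, with sums over 5 markers of 10.5 to 11.6 CPM and 21.2 to 23.7 CPM, and *lyz* was at 0 in every library. The third, *npsn*, had means of 4.39 and 3.65 CPM, was not called with condition alone (edgeR adjp = 0.291) and was lower with the block (0.0479), so that most of the difference in the sums was that of *csf3r*, with means of 6.13 and 17.2 CPM. Of 5 T lymphocyte markers, *zap70* rose with condition alone, DESeq2 called 2 higher, and with the block *zap70*, *lck*, *cd8a* and *il2rb* were called higher. Their sums were 6.69 to 10.7 CPM in control and 13.5 to 19.3 CPM in injured libraries. Endothelial markers rose for 6 of 8, with sums of 150.1 to 154 CPM and 205 to 239 CPM. Oligodendrocyte markers rose for 5 of 8, and for 7 with the block. Their sums were 423 to 562 CPM and 565 to 786 CPM, only narrowly apart. The oligodendrocyte marker with the highest level, *mbpa*, had means of 227 and 302 CPM, and the conditions overlapped. It was called with the block (edgeR adjusted *p*-value 0.00130) but not with condition alone (0.264). Of 3 erythrocyte markers edgeR called 0, and 0 had an unadjusted *p*-value below 0.05, with sums of 46.4 to 64.6 CPM and 42.8 to 61.4 CPM. In contrast, 5 of 9 neuronal markers fell, and 7 with the block, from sums of 6448 to 6518 CPM to sums of 5614 to 5853 CPM. The genes *csf3r*, *ptprc*, *il2rb* and *gfap* stand on both marker and pathway lists. The part of these cell types in the values of *stat3*, *jak3*, *stat4* and the receptors was not tested.

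**Figure D5:**
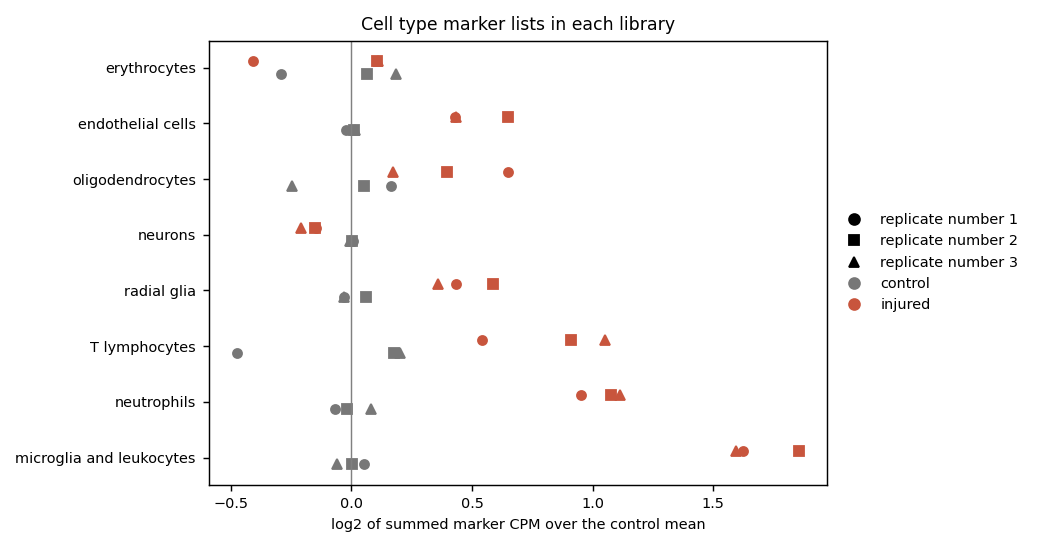
Log2 of the summed CPM of each marker list over the mean of its control libraries, for each control (grey) and injured (red) library, with symbols for the replicate number. Sums of microglia and leukocyte, neutrophil, T lymphocyte, radial glia, oligodendrocyte and endothelial markers lie higher and those of neurons lower in every injured library, while erythrocyte sums overlap.

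Injured replicates 1 and 3 also held transcripts of pineal and photoreceptor cells, with 5 of 6 markers tested called higher and sums of 134 and 306 CPM, against 6.99 CPM in injured replicate 2 and 5.98 to 8.53 CPM in control libraries. In a fit without these libraries, the log2 fold changes of *stat3*, *jak1*, *il6r* and *socs3b* were 0.50, 0.43, 1.01 and 0.79. That of *il6st* was 0.47 and that of *socs3a* 0.24. This fit compares 1 injured with 3 control libraries and assumes that the injured library varies like the controls.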

How the data were processed

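The authors mapped reads to GRCz11 with STAR, kept the best mapping of reads with several loci, and used HTSeq in its union mode for counting. The deposited values are raw counts per gene, not normalized, for each of the 6 hemispheres. Tool versions, strand setting and annotation release are not given in the sources used here. Reads on no gene (27.2% to 29.7% of a library) or on more than 1 gene (1.45% to 1.53%) were left out.

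The fit was made with edgeR 4.0.16 under R 4.3.3 (TMM, filterByExpr defaults, glmQLFit, glmQLFTest, condition as the only term) and DESeq2 1.42.0 as an alternative. As SE, the size of the log2 fold change over the root of its F statistic is given. The fit with condition alone was run on simulated counts of independent libraries, to see whether changed genes were called with the right sign. No limit was set on the share of false calls there. The SE and the fit with the block were not checked in this way.

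Names came from Ensembl symbols, the supplementary tables and RefSeq synonyms, and 145 of 163 symbols of the pathway lists and 64 of 79 markers were matched to a gene. The supplementary tables mainly list genes that the study found changed. Where an Ensembl name was ambiguous, a gene could thus be matched because it had changed, so matching was not independent of the results. Members and lists were chosen with earlier results of these data known. Named were all members, every called Jak, Stat and Socs gene, the 3 called genes with the smallest adjp of each further list, genes of the paralog pairs, and the 5 genes most like *stat3*. Apart from these, *socs1a*, *tyk2*, *il11ra*, *osmr*, *lepr*, *prlra*, *il6*, *il15*, *ptpn11a*, both *pias1* genes, the Stat3 targets other than *cebpb*, *mmp9* and *gfap*, and single markers were chosen after their values were seen. Of 8 ratios, 5 had at least 10 reads of both genes in every library and were tested. Some genes of the lists are not reported here. Stat motifs in promoters were planned and not analysed here.

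Alternatives were RLE, upper-quartile or no normalization, no filter, a mean normalized count above 100, DESeq2, Bonferroni adjustment, the replicate block, a pseudocount of 0.5 for ratios, and each library left out. The fit without injured replicates 1 and 3 was added after the data had been seen.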

Additional observations from a re-analysis of the deposited data

How the results depend on the processing

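Normalization by RLE or upper quartile, no filter and DESeq2 with Benjamini-Hochberg adjustment each gave 5 of 10 members called. A mean above 100 gave 5 of the 8 members it tested. Over all genes tested, RLE called 3835, upper quartile 3725 and DESeq2 4928 of 22558. The fit with no filter called 3483 of 29264, and that with a mean above 100 called 3313 of 17299. Scaling by library size alone also gave 5 members, but 3051 higher and 470 lower genes over all, against 2628 and 1087 with TMM, and it turned the uncalled log2 fold changes of *il11a* to 0.018 and of *lifra* to 0.0017. Bonferroni adjustment of the edgeR test called 51 genes, 3 other pathway genes and 0 members, while 6 members were below 0.05 before adjustment and 4 were called by DESeq2 under the same correction. Under it, *il6st*, *il6r*, *jak1*, *stat3* and *socs3b* lost their calls at unchanged log2 fold changes of 0.37, 0.98, 0.40, 0.46 and 0.68. DESeq2 with Bonferroni adjustment called 1325 genes and 19 other pathway genes, and *il6st* lost its call at 0.36. With the replicate block, 8141 genes and 7 members were called, and *jak2a* at -0.18 and *socs3a* at 0.64 passed the threshold. The block changed the call of no other member. For ratios it gave a two-sided exact sign-flip *p* of 0.25 at best, the smallest that 3 pairs allow.

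Without 1 library in turn, 1797 to 3017 genes were called, of 22780 to 23024 tested. Of 10 members 4 or 5 were called, and of the other pathway genes 21 to 28. The count of other pathway genes was 21 without control replicate 3, 22 without injured replicate 2 and 21 without injured replicate 3, against 36 with all libraries. Log2 fold changes were 0.29 to 0.45 for *il6st*, 0.29 to 0.92 for *socs3a*, -0.24 to 0.22 for *il11a* and -1.17 to -0.41 for *lepb*, and log2 ratios changed by -0.35 to 0.24 for *socs3a* to *socs3b* and -0.089 to 0.12 for *stat5a* to *stat5b*. Without injured replicates 1 and 3, 1738 genes, 20 other pathway genes and 4 members were called, and *il6st* was at 0.47. The cause was not tested. A mean above 100 left no value for *lepb* and *il11a*. Depth limits the ligands, with 4 to 70 reads of *lepb* and *il11a* per library.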
